A study of Mus musculus with 9 samples.

Results

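The 9 genes described here encode the salt-inducible kinases (Sik1, Sik2 and Sik3), the cAMP-regulated transcriptional coactivators (Crtc1, Crtc2 and Crtc3) and the CREB factors (Creb1, Crem and Atf1). They were taken by gene symbol from 19938 genes measured on 9 Affymetrix whole-transcript arrays, and each had 1 probe with no other gene listed for it. The cells were MA-10, a mouse Leydig tumour line that makes steroids when cAMP rises. Their groups were 10 µM forskolin with 1 mM AICAR (3 arrays, called forskolin + AICAR), 10 µM forskolin alone (3 arrays) and the DMSO vehicle (3 arrays, called control), each given for 1.5 h in medium without serum. Forskolin activates adenylyl cyclase, and AICAR is converted in cells to an AMP mimic that activates the kinase AMPK. The design asks what forskolin did to transcripts and what AICAR did on top of forskolin. Cells with AICAR alone were not analysed here, and all results are from this tumour line.

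These genes form a switch for cAMP-driven transcription. In resting cells the salt-inducible kinases phosphorylate the CRTC proteins, which then bind 14-3-3 proteins and stay in the cytoplasm. When cAMP rises, protein kinase A (PKA) phosphorylates CREB family factors and also inhibits the salt-inducible kinases, and dephosphorylated CRTC proteins enter the nucleus and join CREB on cAMP response elements (CREs) of target genes. Sik1 is itself such a target in many cell types, so its product can feed back on the pathway, and the salt-inducible kinases belong to the family of AMPK-related kinases that LKB1 activates. The arrays measured RNA, so phosphorylation, protein amount and location of these proteins were not measured.

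The values are log2 summaries of each probe, and the medians of the 9 arrays lay between 7.14 and 7.19. Precision is set by there being 3 arrays in a group. Whether replicates came from separate dishes is not given in the labels, so a p-value here reflects only how these arrays varied, which may be technical. The AICAR comparisons depended on the arrays used: 3324 genes were called between forskolin + AICAR and forskolin without forskolin + AICAR replicate 1, against 1017 with all arrays. Correlations within that group did not single this array out, at 0.9983 between replicates 1 and 2, 0.998 between replicates 2 and 3 and 0.997 between replicates 1 and 3. Correlations with the other groups did. With forskolin replicate 1, for example, they were 0.998, 0.9972 and 0.9961 for forskolin + AICAR replicates 1, 2 and 3. Replicate 1 was likewise the nearest of its group to every other forskolin and control array. The interquartile ranges of the 3 arrays were 3.42, 3.35 and 3.34, against 3.42, 3.42 and 3.46 with forskolin. Why replicate 1 differed was not tested. Member results that omission of forskolin + AICAR replicate 1 changed are given with and without it.

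Sik1 was the member that responded, and it responded to forskolin and not detectably to AICAR. Its log2 values (probe 10449741) were 10.50, 10.42 and 10.55 with forskolin + AICAR, 10.43, 10.50 and 10.61 with forskolin, and 7.99, 7.96 and 7.80 in control. All 6 arrays that received forskolin lay far above all 3 control arrays, and the forskolin + AICAR and forskolin arrays overlapped. With forskolin Sik1 averaged 10.51 ± 0.09, against 7.92 ± 0.10 in control (SD, n = 3 each), a 6.04-fold rise (adjusted p = 7.89e-08 in limma's moderated test). With forskolin + AICAR it averaged 10.49 ± 0.07, a 5.96-fold rise over the same control arrays (log2 difference 2.57, SE 0.07, adjusted p = 8.5e-08). By size of rise over control, Sik1 ranked 2 of 19938 genes with forskolin and 1 of 19938 with forskolin + AICAR in this fit. Between forskolin + AICAR and forskolin the log2 difference was −0.02 (SE 0.07, adjusted p = 0.86), with a 95% interval of −0.17 to 0.13, that is 0.891-fold to 1.09-fold. Both rises passed the test under all 17 alternative settings and single-array omissions tried, with log2 differences of 2.54 to 2.64 for forskolin and 2.50 to 2.61 for forskolin + AICAR.

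**Figure D1:**
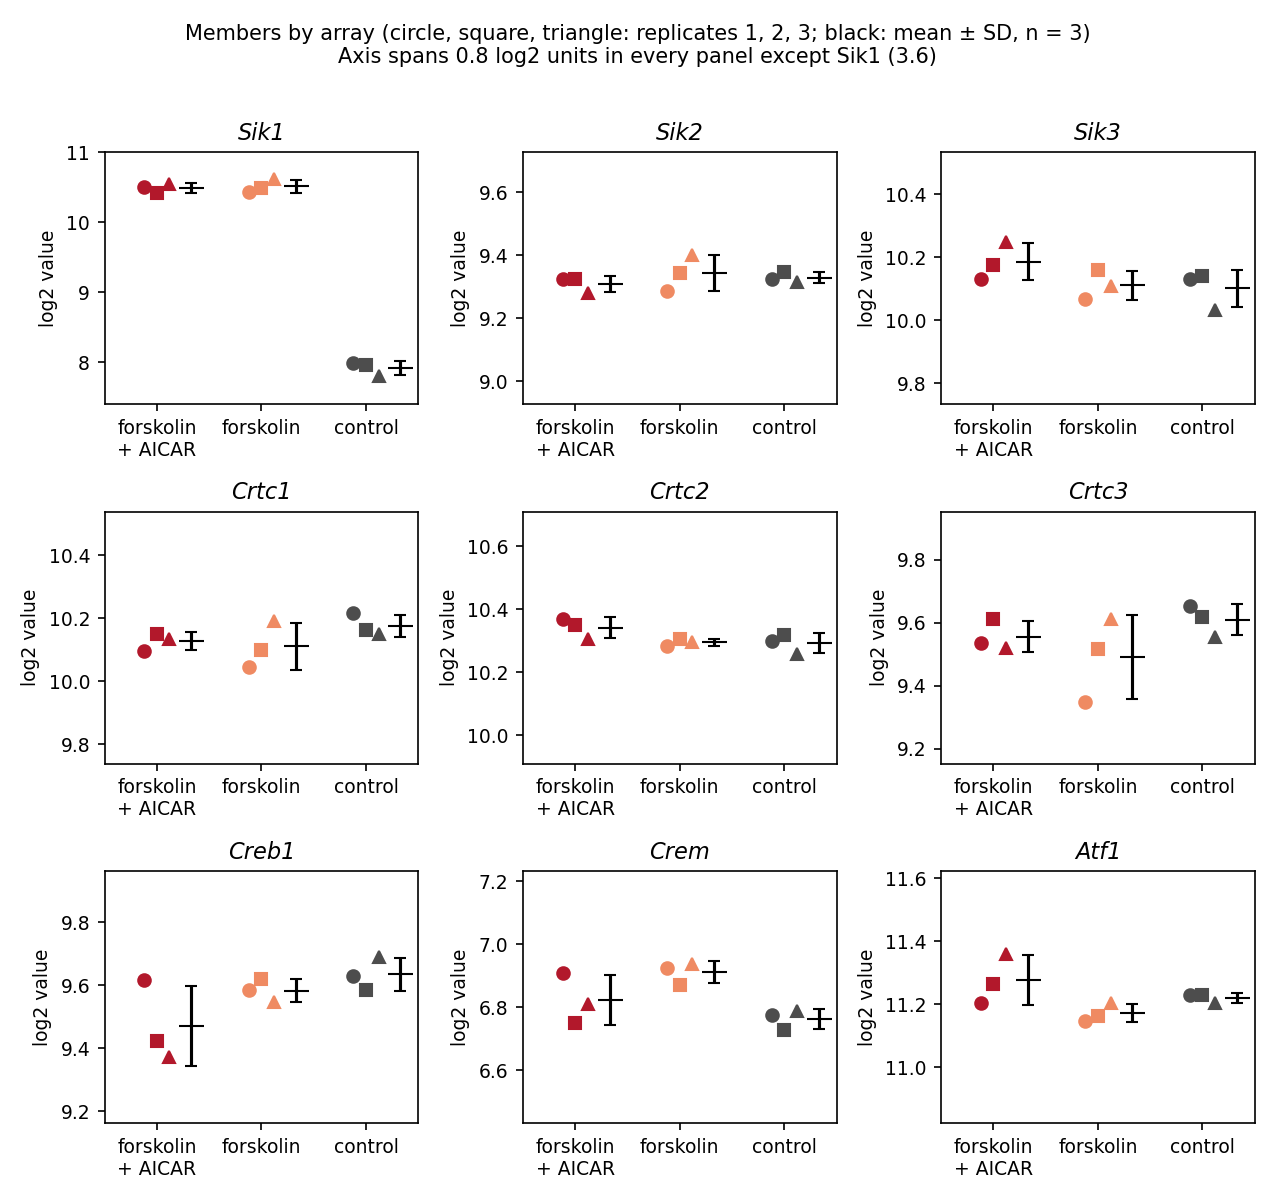
Log2 values of the 9 members (y axis) in each array, by group (x axis: forskolin + AICAR, forskolin, control). Circles, squares and triangles are replicates 1, 2 and 3, and black marks are means ± SD (n = 3). All 6 arrays with forskolin lie above 10.4 for Sik1 and the control arrays lie below 8, whereas the groups of most other members overlap.

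Sik2 and Sik3, close relatives of Sik1 that also phosphorylate CRTC proteins, did not pass the test in any of the 3 comparisons. Sik2 (probe 10593430) had 9.32, 9.32 and 9.28 with forskolin + AICAR, 9.29, 9.34 and 9.40 with forskolin, and 9.32, 9.35 and 9.32 in control. The 3 groups overlapped, and the 95% interval of the forskolin difference from control was −0.07 to 0.10. Sik3 (probe 10584977) had 10.13, 10.18 and 10.25 with forskolin + AICAR, 10.07, 10.16 and 10.11 with forskolin, and 10.13, 10.14 and 10.03 in control. Forskolin + AICAR held the highest Sik3 array and the highest mean, yet its replicate 1 fell within both other groups, and its difference was 0.07 from forskolin (SE 0.05, adjusted p = 0.346) and 0.08 from control (SE 0.05, adjusted p = 0.246).

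None of the coactivator genes passed the test in any comparison. Crtc1 (probe 10579262) had 10.10, 10.15 and 10.13 with forskolin + AICAR, 10.04, 10.10 and 10.19 with forskolin, and 10.22, 10.16 and 10.15 in control. Crtc2 (probe 10493711), the coactivator best known from glucagon signalling in liver, had 10.37, 10.35 and 10.31 with forskolin + AICAR, 10.28, 10.31 and 10.30 with forskolin, and 10.30, 10.32 and 10.26 in control. For both genes every group overlapped the others, and Crtc2 had the narrowest spread of the 9 members in the fit (SE 0.04). Crtc3 (probe 10565002) had 9.54, 9.61 and 9.52 with forskolin + AICAR, 9.35, 9.52 and 9.61 with forskolin, and 9.65, 9.62 and 9.55 in control. Its forskolin arrays were the most scattered of the 3 groups (SD 0.13, against 0.05 in control), with replicate 1 lowest. Across the 3 coactivators the differences from control with forskolin were −0.06, 0.00 and −0.12 for Crtc1, Crtc2 and Crtc3 (adjusted p = 0.873, 0.996 and 0.795).

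Among the CREB factors, Crem had the lowest p for forskolin against control but did not pass the test. The Crem gene makes activators and, from an internal promoter, the cAMP-inducible repressor ICER, and a summary over the whole transcript does not separate these forms. Its log2 values (probe 10457205) were 6.91, 6.75 and 6.81 with forskolin + AICAR, 6.92, 6.87 and 6.94 with forskolin, and 6.78, 6.73 and 6.79 in control. The forskolin arrays lay above every control array, and the forskolin + AICAR arrays spread across both, with replicate 1 at the forskolin level. The forskolin difference was 0.15 (SE 0.05, unadjusted p = 0.0108), which did not pass after adjustment (adjusted p = 0.378, and 0.0998 to 0.786 over the alternatives). The mean of its probe over the 9 arrays, 6.83, lay below every array's median.

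Creb1, which encodes the founding member of the CREB family and is itself switched on by phosphorylation, had its lowest values with AICAR. Its log2 values (probe 10346943) were 9.61, 9.42 and 9.37 with forskolin + AICAR, 9.58, 9.62 and 9.55 with forskolin, and 9.63, 9.58 and 9.69 in control. Replicates 2 and 3 of forskolin + AICAR were below all 6 other arrays, and replicate 1 was within their range. Over all arrays the log2 difference of forskolin + AICAR was −0.11 from forskolin (SE 0.06, adjusted p = 0.286) and −0.16 from control (SE 0.06, unadjusted p = 0.0258, adjusted p = 0.115), so neither passed. Without forskolin + AICAR replicate 1, Creb1 was called lower in both comparisons, at −0.19 from forskolin (adjusted p = 0.031) and −0.24 from control (adjusted p = 0.0108). That refit called 3324 and 4741 of all 19938 genes in these comparisons, against 1017 and 1739 with all arrays. Such calls were thus common in it and do not set Creb1 apart.

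Atf1, a close relative that pairs with CREB1, had a positive difference in the AICAR comparison that did not pass the test. It had 11.20, 11.26 and 11.36 with forskolin + AICAR (probe 10426875), 11.15, 11.16 and 11.20 with forskolin, and 11.23, 11.23 and 11.20 in control. By group mean forskolin + AICAR was highest and forskolin lowest, but neighbouring groups met at 11.20, exactly the same deposited value in 1 array of each group. The difference between forskolin + AICAR and forskolin was 0.10 (SE 0.04, unadjusted p = 0.0427, adjusted p = 0.194). For Creb1, Crem and Atf1 alike, forskolin + AICAR replicate 1 was the array of its group nearest to the forskolin mean. Sik1, Sik3 and Crtc1 showed this too, so it was not particular to the CREB factors. With limma's array weights, which gave that array 0.354 and replicates 2 and 3 of its group 2.84 and 0.318, Creb1 (−0.17, adjusted p = 0.0153) and Crem (−0.12, adjusted p = 0.0338) were called lower and Atf1 (0.10, adjusted p = 0.0264) higher than with forskolin. The same weights called 5729 of all 19938 genes in that comparison, against 1017 without weights, so these calls do not set the 3 genes apart.

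**Figure D2:**
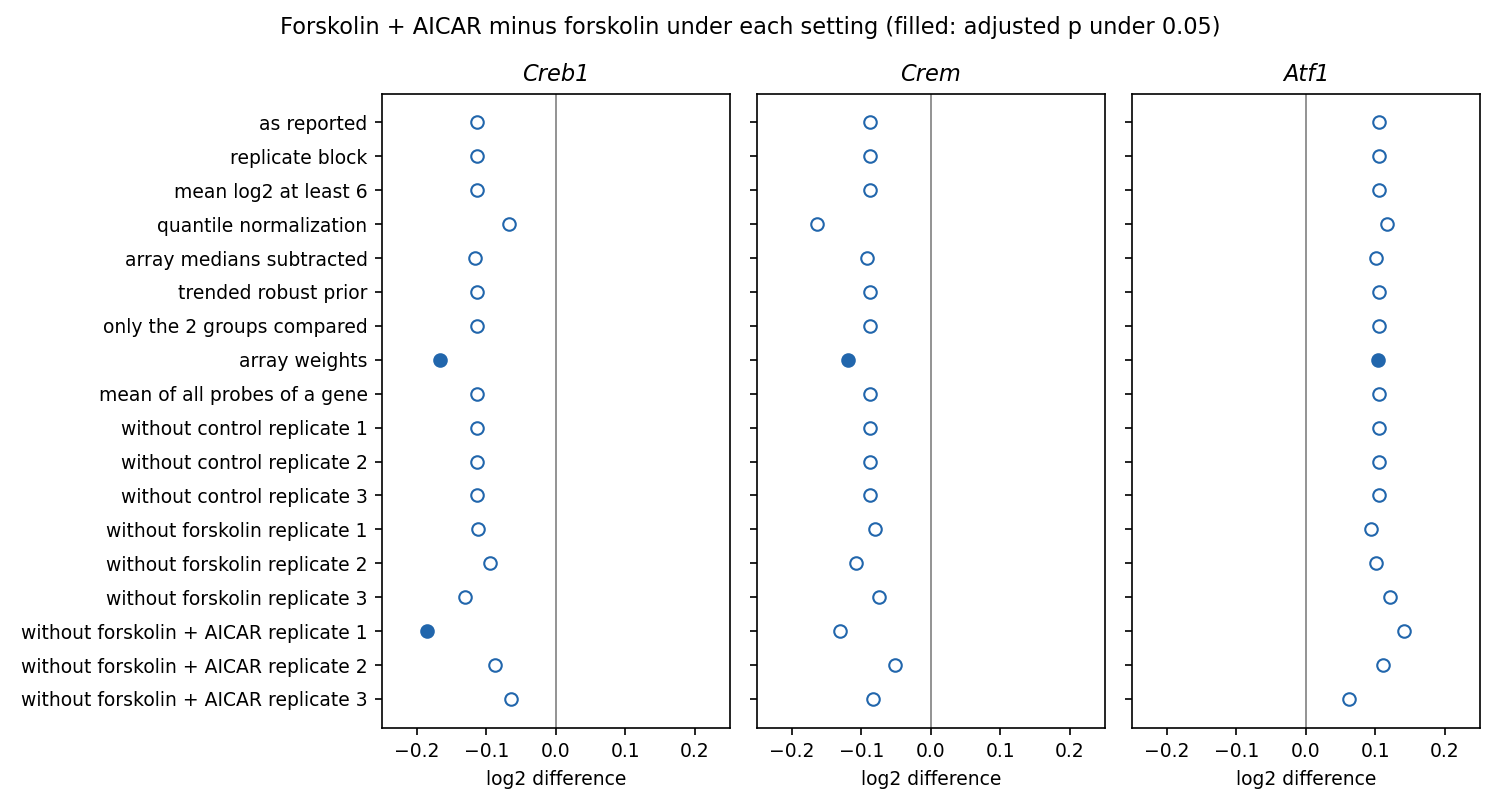
Log2 difference of forskolin + AICAR minus forskolin (x axis) for Creb1, Crem and Atf1 in the fit as reported, under 8 other settings and without each array in turn (y axis). Filled points had an adjusted p under 0.05. Creb1 and Crem lie below 0 and Atf1 above 0 in every setting shown, and the filled points are those with array weights and, for Creb1, without forskolin + AICAR replicate 1.

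Counted over the 9 members, forskolin raised 1 (Sik1), lowered 0 and left 8 below the threshold, an adjusted p under 0.05. In that comparison 0.692% of all 19938 genes were called, 0.497% higher (99 genes) and 0.196% lower (39 genes). Forskolin + AICAR against forskolin called 0 of the 9 members in limma (1 at an unadjusted p under 0.05, Atf1), where 5.1% of all genes were called. These were 0.978% higher (195 genes) and 4.12% lower (822 genes), or 389 higher and 766 lower after quantile normalization. The predominance of lower calls was not stable, with 1677 higher and 1647 lower without forskolin + AICAR replicate 1, and 3075 higher and 2654 lower with array weights. Forskolin + AICAR against control called Sik1 higher and no other member, where 8.72% of all genes were called, 3.04% higher and 5.68% lower. That balance also turned, to 2675 higher and 2066 lower without forskolin + AICAR replicate 1, and to 3578 higher and 3041 lower with array weights. Replicates did not overlap between forskolin and control for 2 members, Sik1 and Crem, both higher, a pattern that 6.85% of all genes showed in that direction. The median log2 difference of the 9 members was 0.00, 0.02 and 0.05 in the order of these comparisons, against 0.00, 0.02 and 0.02 over all genes. These comparisons share arrays and are not independent.

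For the 8 members other than Sik1, the fit to all arrays limits how large a change in the value of the whole probe could have gone unseen. Their 95% intervals stayed between −0.26 and 0.25 on the log2 scale for forskolin against control, between −0.25 and 0.21 for forskolin + AICAR against forskolin, and between −0.30 and 0.19 for forskolin + AICAR against control. The widest of these intervals reached a 1.23-fold change. The Crem probe does not separate ICER from the other forms, so this does not limit a change in ICER alone. Without forskolin + AICAR replicate 1, Creb1 was at −0.24 from control (SE 0.05), so the limit also depends on the arrays used. A value that did not pass the test is not shown to be equal between groups.

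**Figure D3:**
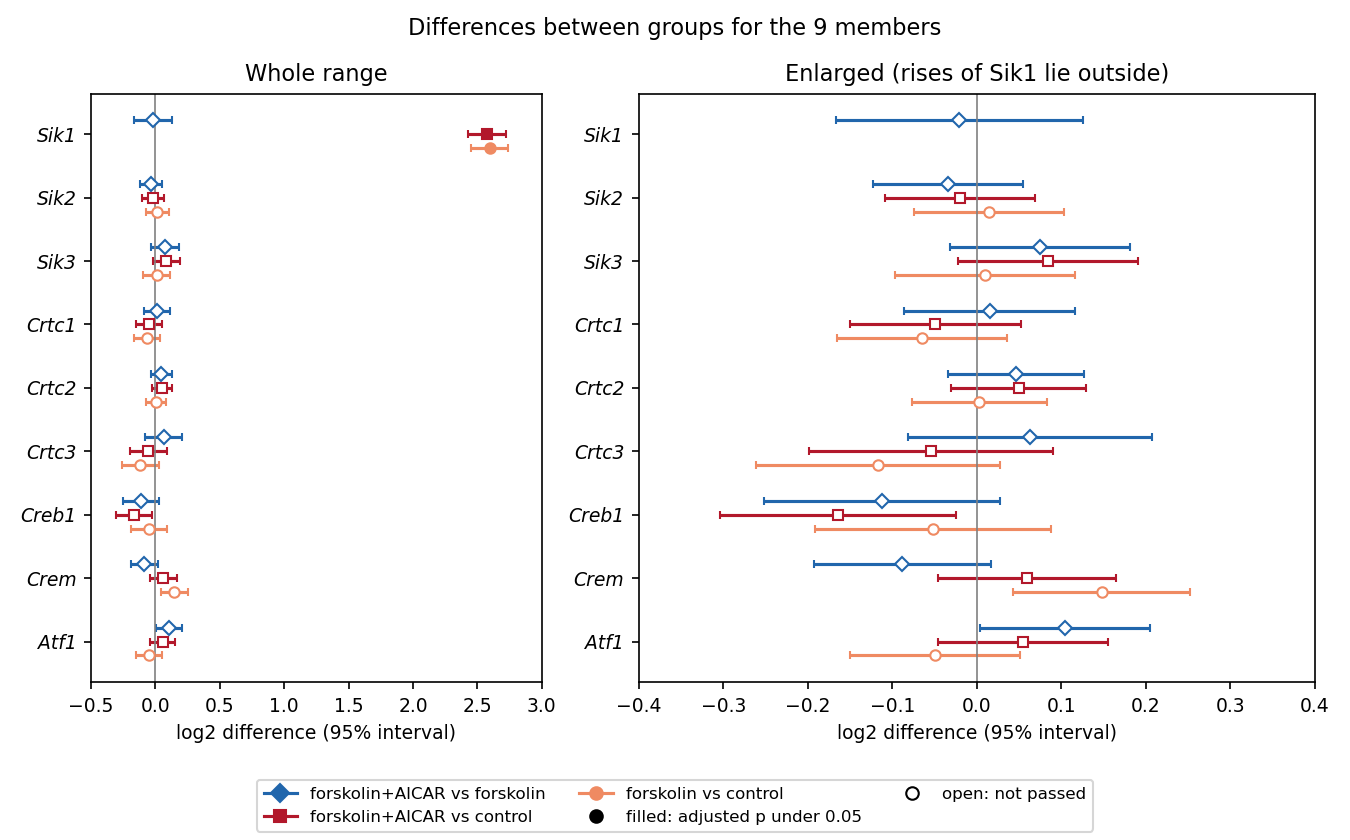
Log2 differences of the 9 members with 95% intervals (x axis) in the 3 comparisons, whole range on the left and enlarged on the right. Filled markers had an adjusted p under 0.05. The rises of Sik1 over control stand at 2.60 and 2.57, and the other members lie between −0.16 and 0.15.

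Promoter sequence was available from RefSeq (assembly GRCm38.p6) for 6 of the 9 members: Sik2, Sik3, Crtc1, Crtc3, Creb1 and Atf1. The 250 bases before each start were searched on both strands for the full CRE TGACGTCA and for its shorter form TGACG, which the full CRE contains on each strand. None of the 6 held the full CRE, which 1.55% of all 32851 promoters in the table held. Sik3 held the short form 3 times and Atf1 held it 1 time, whereas 17.8% of all promoters held it at least 1 time and 0.688% at least 3 times. Both are printed 5′ to 3′ with each short form in capitals (TGACG, or CGTCA where it lies on the other strand), because they are the members whose windows carry the motif although their transcripts did not pass the test. Sik3 is at chr9:46012570-46012819, plus strand, and Atf1 at chr15:100227609-100227858, plus strand. Nr4a1, at chr15:101266596-101266845 on the plus strand, and Dusp1, at chr17:26508473-26508722 on the minus strand, are set beside them as CREB target genes that rose with forskolin, and they were chosen after their values were seen.
Sik3: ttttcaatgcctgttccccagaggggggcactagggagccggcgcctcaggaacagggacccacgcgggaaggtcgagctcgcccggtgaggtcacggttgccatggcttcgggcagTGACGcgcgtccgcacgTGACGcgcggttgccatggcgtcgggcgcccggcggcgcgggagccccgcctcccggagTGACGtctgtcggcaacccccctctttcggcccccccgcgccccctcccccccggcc
Atf1: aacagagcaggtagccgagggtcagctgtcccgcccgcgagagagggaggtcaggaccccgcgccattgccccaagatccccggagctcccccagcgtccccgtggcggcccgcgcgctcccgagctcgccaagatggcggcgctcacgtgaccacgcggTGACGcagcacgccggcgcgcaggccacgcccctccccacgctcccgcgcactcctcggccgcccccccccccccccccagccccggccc
Nr4a1: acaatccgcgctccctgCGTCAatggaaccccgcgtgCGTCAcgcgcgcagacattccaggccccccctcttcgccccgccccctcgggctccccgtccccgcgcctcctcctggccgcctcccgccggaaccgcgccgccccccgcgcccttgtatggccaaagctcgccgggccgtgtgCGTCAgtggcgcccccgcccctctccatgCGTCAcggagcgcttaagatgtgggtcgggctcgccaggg
Dusp1: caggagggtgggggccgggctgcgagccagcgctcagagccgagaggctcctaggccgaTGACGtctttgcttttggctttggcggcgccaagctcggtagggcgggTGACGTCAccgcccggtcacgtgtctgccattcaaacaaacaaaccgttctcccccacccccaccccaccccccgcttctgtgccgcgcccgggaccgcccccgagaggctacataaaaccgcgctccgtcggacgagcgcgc
Counted from the annotated start, the short form began at −133, −116 and −57 in Sik3 and at −90 in Atf1. In Nr4a1 it began at −233, −213, −69 and −40, and the full CRE of Dusp1 began at −143. The Sik3 window thus carried 3 copies and Nr4a1 carried 4, while the forskolin difference was 0.01 for Sik3 and 2.64 for Nr4a1. A match in these letters is not a shown binding site, and other promoters and enhancers of these genes were not searched.

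Genes that CREB and CRTC proteins are known to switch on were called in part, mostly as higher with forskolin, and in both directions when AICAR was added. Of 34 measured genes of such a list, 13 rose with forskolin, 1 fell (Inhba, an activin subunit, −0.47, adjusted p = 0.00559, named after its value was seen) and 20 did not pass, where 0.497% of all genes were called higher and 0.196% lower. The list was chosen with earlier results of these data known, so its counts and medians are a description and not independent evidence. Of the 20 that did not pass, some lay below every array's median in each group. Examples, named after their values were seen, are Ppargc1a (mean 4.48 with forskolin), Rgs2 (5.15) and Cga (5.43). Others lay above, and Nr4a3, also below in control (6.19), was called. The 20 are thus not shown to be unresponsive. The list's median log2 difference was 0.18, against 0.00 over all genes. The furthest were Nr4a1 (2.64) and Nr4a3 (2.34), orphan nuclear receptors of early cAMP responses, Star (1.89), the mitochondrial cholesterol carrier of steroid synthesis, and the AP-1 subunit Fosb (1.15). Forskolin + AICAR against forskolin called 4 of the 34 higher and 10 lower, led by Star (−2.05), Fos (1.25), Nr4a3 (−1.02) and the MAP kinase phosphatase Dusp1 (−0.83), where 0.978% of all genes were called higher and 4.12% lower. The list's median was −0.05, against 0.02 over all genes. Without forskolin + AICAR replicate 1 these counts were 7 and 13, and without any 1 forskolin array, or forskolin + AICAR replicate 2 or 3, 1 or 2 genes were higher and 9 to 11 lower. Against control, 11 were higher and 4 lower with forskolin + AICAR (16 and 5 without its replicate 1), where 3.04% of all genes were called higher and 5.68% lower. The median was 0.14, against 0.02 over all genes, and Nr4a1 (2.18), Fos (1.99), Nr4a3 (1.32) and Fosb (0.97) were furthest.

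Sik1 was not alone among forskolin-raised targets in having no call between forskolin + AICAR and forskolin. Of the 13 listed targets that rose with forskolin, Fosb (−0.18, adjusted p = 0.0988), Bhlhe40 (−0.26, adjusted p = 0.0557) and Per1 (−0.30, adjusted p = 0.0637) had none either, the last 2 named after their values were seen. Star and Nr4a1 were called lower. Star had 8.47, 8.38 and 8.40 with forskolin + AICAR, 10.55, 10.33 and 10.52 with forskolin, and 8.57, 8.61 and 8.56 in control. Its forskolin + AICAR arrays lay just below the control arrays, a difference that did not pass (−0.16, adjusted p = 0.106). Nr4a1 had 12.51, 12.50 and 12.60 with forskolin + AICAR, 12.98, 13.00 and 13.02 with forskolin, and 10.24, 10.44 and 10.40 in control. Its forskolin + AICAR arrays lay below all forskolin arrays (log2 difference −0.46, SE 0.05, adjusted p = 0.00169) and well above control. The interval of Sik1 in this comparison, −0.17 to 0.13, does not reach the values of Star, Nr4a3 or Nr4a1. It also stops short of those of Fosb, Bhlhe40 and Per1, though only just for Fosb (−0.18). The errors of those genes were not set against it, so it neither groups Sik1 with them nor separates it. The difference between genes in their AICAR response was not itself tested.

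**Figure D4:**
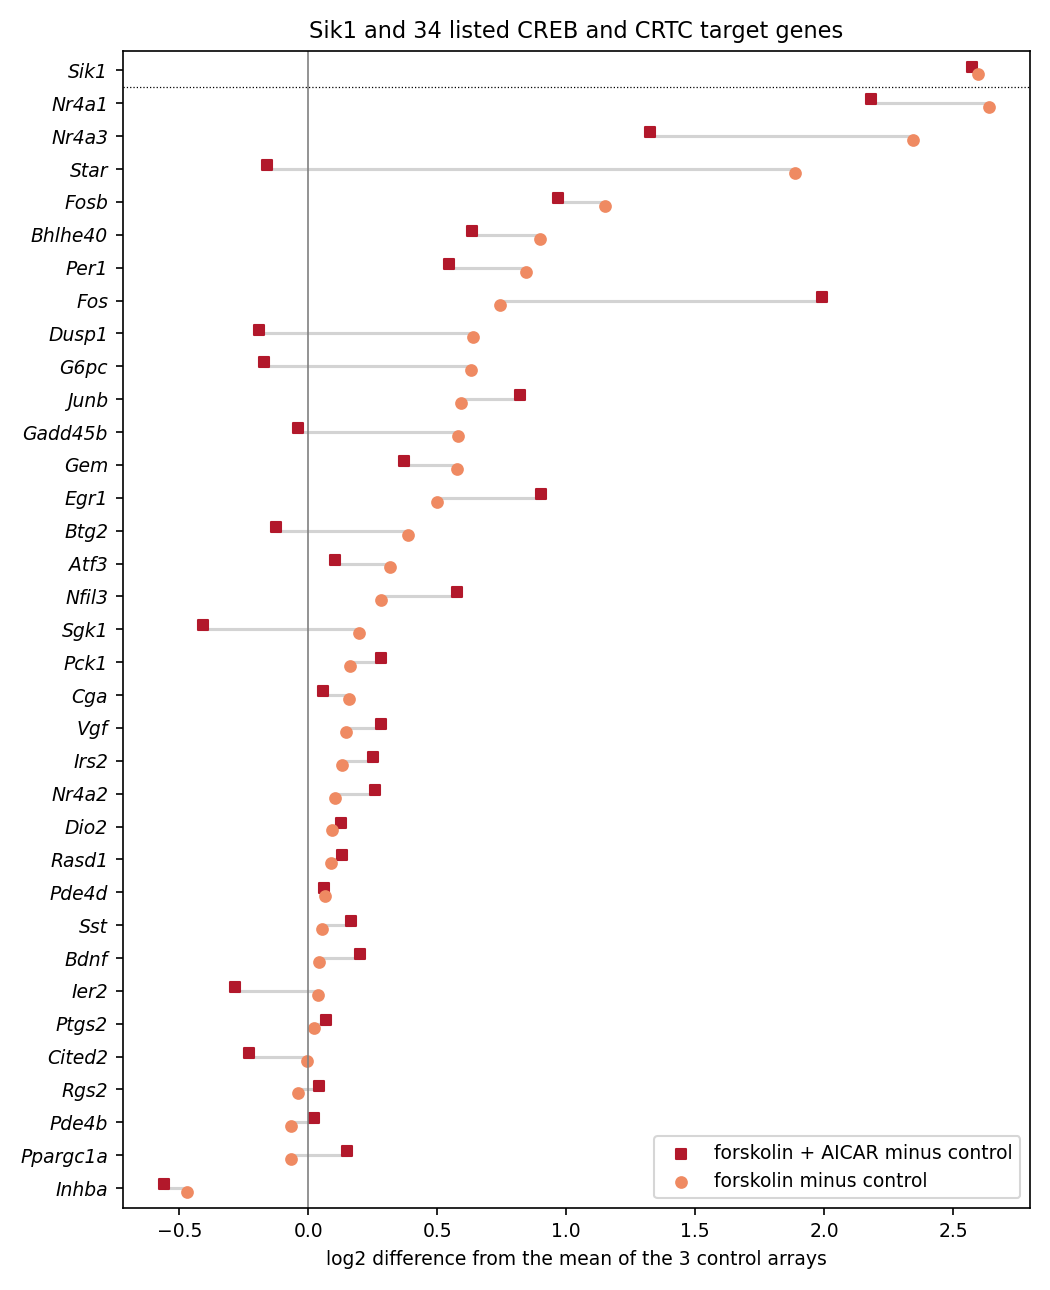
Log2 difference from the mean of the 3 control arrays (x axis) for Sik1 and the 34 measured CREB and CRTC target genes (y axis), with forskolin + AICAR as squares and forskolin as circles. Sik1 has its square and circle at 2.57 and 2.60, whereas Star has them at −0.16 and 1.89 and Fos at 1.99 and 0.74.

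Over the 9 arrays, the genes whose values followed Sik1 most closely by Pearson correlation, among 15043 other genes with a mean log2 value of at least 6 and leaving out predicted transcripts, were Nr4a1 (r = 0.985), Fosb (0.984), the mRNA decay factor Zfp36l1 (0.981), the angiomotin gene Amotl2 (0.980) and the sterol enzyme gene Hsd17b7 (0.976). The 9 points fall into a control cluster and a forskolin cluster, so r mainly records that step and is given as a description. Zfp36l1 and Amotl2 rose with forskolin by 0.78 and 0.84 and had differences of −0.14 each between forskolin + AICAR and forskolin (adjusted p = 0.0967 and 0.218). Hsd17b7 followed the same course at a much smaller size, with a forskolin difference of 0.12 that did not pass (adjusted p = 0.259).

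Genes that feed into the switch are read against the 0.692% of all genes called with forskolin, a share at which counts of 0 or 1 in lists of this size are no result about them. None of 5 LKB1 complex genes, 8 PKA subunit and inhibitor genes, 7 14-3-3 genes, 8 calcineurin and calcineurin regulator genes, 4 class IIa histone deacetylase genes or 6 CREB coactivator genes was called with forskolin in limma (2 at an unadjusted p under 0.05), and the lowest and highest of these 38 differences were −0.14 and 0.26. Of 13 AMPK-related kinases beside the salt-inducible ones, Snrk fell with forskolin by 0.21 on the log2 scale (SE 0.04, adjusted p = 0.0398), a call lost in 10 of 17 alternatives, among them the omission of any control or forskolin array or of forskolin + AICAR replicate 2 (adjusted p up to 0.198).

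Between forskolin + AICAR and forskolin 4 genes of these lists were called, where 5.1% of all genes were, so the number of calls does not set the lists apart. Prkaa1, a catalytic AMPK subunit, was lower (log2 difference −0.24, SE 0.05, adjusted p = 0.0335), as was Prkar2b, a regulatory PKA subunit (−0.35, SE 0.06, adjusted p = 0.0158). Rcan1, a calcineurin inhibitor that cAMP and calcium can induce, was lower (−0.28, SE 0.05, adjusted p = 0.0145), and Stradb, a partner of LKB1, was higher by 0.22 (SE 0.05, adjusted p = 0.0316). The highest adjusted p over the alternatives was 0.124 for Prkaa1, 0.0637 for Prkar2b, 0.0636 for Rcan1 and 0.106 for Stradb, and omission of forskolin replicate 3 or forskolin + AICAR replicate 2 ended each of the 4 calls. Omission of any control array also ended those of Prkaa1 and Stradb, as did forskolin replicates 1 and 2 and forskolin + AICAR replicate 3, while forskolin replicate 1 also ended that of Prkar2b and forskolin replicate 2 that of Rcan1. Against control, where 8.72% of all genes were called, forskolin + AICAR had Prkaa1 (−0.24), Nuak1 (−0.26) and Mark2 (−0.20) called lower among the AMPK-related kinases, Rcan1 called lower (−0.30) and Hdac9 called higher (0.18). Of these 5, Rcan1 alone kept its call in all 17 alternatives, and the calls of Prkaa1, Nuak1, Mark2 and Hdac9 ended without any 1 control array and without forskolin + AICAR replicate 2 or 3. Those of Nuak1, Mark2 and Hdac9 also ended without forskolin replicate 1 or 2, and that of Nuak1 without forskolin replicate 3. The highest adjusted p over the alternatives was 0.0868 for Prkaa1, 0.156 for Nuak1, 0.208 for Mark2 and 0.189 for Hdac9.

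Of 16 other CREB and ATF family genes, 1 was called higher with forskolin, where 0.497% of all genes were. With forskolin + AICAR, 2 were called lower than with forskolin and 3 lower than in control. Over all genes these shares were 4.12% and 5.68%. Counts this small are no result about the list. Crebl2, which encodes a small bZIP protein related to CREB, changed in both directions. It had 8.77, 8.56 and 8.78 with forskolin + AICAR, 9.31, 9.38 and 9.58 with forskolin, and 8.99, 8.84 and 8.99 in control. The forskolin arrays were above all others and the forskolin + AICAR arrays below all others. Crebl2 rose with forskolin by 0.49 (SE 0.08, adjusted p = 0.0323) and was lower with forskolin + AICAR than with forskolin (−0.72, SE 0.08, adjusted p = 0.00138). The rise lost its call without any 1 control or forskolin array or forskolin + AICAR replicate 3 (adjusted p up to 0.149), and the fall kept its call in all 17 alternatives. Crebzf, another bZIP factor, was lower with forskolin + AICAR than with forskolin (−0.24, adjusted p = 0.038) and than in control (−0.34, adjusted p = 0.00677), and the first of these lost its call in 10 of 17 alternatives, among them omission of any control or forskolin array or of forskolin + AICAR replicate 2 (adjusted p up to 0.116). Atf7 (−0.20) and the stress factor Atf4 (−0.16) were called lower against control, and both calls ended when control replicate 1, control replicate 3 or forskolin + AICAR replicate 3 was left out. That of Atf4 also ended without control replicate 2 or forskolin + AICAR replicate 2, and the highest adjusted p was 0.0807 for Atf7 and 0.113 for Atf4. The call of Atf7 ended too with the mean of its probes, and both ended with the replicate block and with only the compared groups. The histone acetyltransferases Crebbp and Ep300, which phosphorylated CREB recruits, did not pass in any comparison.

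All 6 measured Leydig markers had group means of 8.34 or more, above every array's median, while Lhcgr and Insl3 of that list were not measured. Dhh (Sertoli), Ddx4 (germ cell), Cd68 (macrophage) and Cdh5 (endothelial) also lay above every array's median in each group. Such a level alone therefore does not identify the line. The unlogged levels of the 6 Leydig markers were summed, so the brightest genes weigh most. The log2 of this sum was 13.29 to 13.38 with forskolin + AICAR, 13.61 to 13.62 with forskolin and 13.31 to 13.37 in control. Star and Fdx1, the ferredoxin that passes electrons to mitochondrial steroid enzymes, rose with forskolin, Fdx1 by 0.90 (adjusted p = 1.62e-05). Between forskolin + AICAR and forskolin, Star, Fdx1 (−0.34, adjusted p = 0.00334) and the steroid dehydrogenase Hsd3b1 (−0.59, adjusted p = 0.0437) were called lower, and Fdx1 was called higher against control (0.56, adjusted p = 0.000321). The call of Hsd3b1 ended without any 1 control array, without forskolin replicate 1 or 3 and without forskolin + AICAR replicate 2 or 3, with adjusted p up to 0.133 over the alternatives. No marker of Sertoli, germ, peritubular or endothelial cells (5, 6, 5 and 5 measured) was called in any comparison. Of 6 macrophage markers, Cd68, a lysosomal protein gene, was called lower with forskolin + AICAR than with forskolin (−0.39) and than in control (−0.28). The second call ended when control replicate 2 or 3 was left out, with adjusted p as high as 0.105. The log2 of the summed level of the 6 was 8.77 to 8.92 with forskolin + AICAR, 8.99 to 9.03 with forskolin and 8.93 to 8.94 in control. The part of this level in the AICAR comparisons was not tested. Among endothelial markers Cdh5 was far above the array medians in every group (mean 11.98 with forskolin + AICAR, 11.94 with forskolin and 11.97 in control), and Tek was below them (mean 5.28 with forskolin + AICAR, 5.28 with forskolin and 5.18 in control).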

How the data were processed

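The deposited values are log2 summaries per probe (transcript cluster) of 9 whole-transcript arrays, and per the submitters' processing notes RMA and Partek were used, with versions and settings not given in the sources used here. RMA in its usual form corrects background and gives arrays 1 distribution, which can hide shifts common to all genes. Titles of the control samples say untreated and their treatment field says DMSO, so DMSO vehicle was assumed.

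Of 35557 probes, 21789 carried 1 gene symbol. Symbols were updated by Entrez identifier through a RefSeq table, and the probe with the highest mean over the arrays stood for each gene, which left 19938 genes without a filter on dim probes. One linear model of the 3 groups, over 9 arrays, was fitted with limma 3.58.1 in R 4.3.3. Its moderated two-sided p-values received the Benjamini-Hochberg adjustment over all genes, separately for each comparison. The fit was tested on simulated data. Intervals are 95% and not adjusted for the number of genes. Tables and figures used Python 3.11.15, pandas 2.3.3 and matplotlib 3.10.9.

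The members, lists and tests were chosen with earlier results of these data known. Named were all members, called list genes (the 4 with the largest change where a list had more in a comparison) and the 5 genes most correlated with Sik1. Alternatives were a replicate block, a mean log2 value of at least 6, quantile normalization, subtraction of array medians, a trended robust prior, only the compared groups, array weights, the mean of a gene's probes, an adjusted p under 0.01 and each array left out.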

Additional observations from a re-analysis of the deposited data

How the results depend on the processing

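Sik1 kept both rises, with adjusted p of at most 3.94e-05, under all 17 settings and omissions tried, and the count of members called with forskolin was 1 throughout. For forskolin + AICAR against forskolin the count of members called was 0, except 3 with array weights and 1 without forskolin + AICAR replicate 1, so that omissions of 1 array gave 0 to 1. Against control it was 1, except 2 with array weights (Sik1 and Creb1), and 1 to 2 over the omissions. Uncalled differences of members changed sign 9, 5 and 3 times, counting each member in each refit and taking the comparisons in the order used next. The counts over all genes moved more. In the order forskolin against control, forskolin + AICAR against forskolin and forskolin + AICAR against control, they were 138, 1017 and 1739 as reported, 72, 409 and 502 at an adjusted p under 0.01, and 436, 5729 and 6619 with array weights. With the replicate number as a block they were 83, 583 and 874, and the block changed no call of a member. The replicate numbers were not taken as pairs, since the deviations of same-numbered arrays from their group means correlated from −0.41 to 0.33, and 0 of 9 arrays correlated best with its own number. Fits of only the compared groups gave 496 and 758 in the AICAR comparisons. Omissions of 1 array gave 76 to 144, 487 to 3324 and 660 to 4741. The causes of these shifts were not tested.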
